A study of Mus musculus with 14 samples.

Results

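The cytosolic ribosomal protein genes were taken by name: mouse symbols of the Rpl and Rps series together with Rplp0, Rplp1, Rplp2 and Rpsa, leaving out the Rps6k kinases. The array held 187 probes for 85 such genes among 56605 probes and 36870 gene names in all. Cytosolic ribosomes are built from a small subunit, which decodes the messenger RNA and is made of Rps proteins and Rpsa, and a large subunit, which forms the peptide bond and is made of Rpl proteins and the P-stalk proteins Rplp0, Rplp1 and Rplp2. Their messenger RNAs begin with a terminal oligopyrimidine (TOP) stretch, an unbroken run of C and T through which the mTORC1 kinase pathway controls their translation. In T cells, growth after antigen stimulation is preceded by a build-up of ribosomes, and resting cells hold these messenger RNAs in large amounts.

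The 14 one-colour arrays, 1 mouse each, carried RNA of CD4+ T-cells: 7 of Roquin san/+ and 7 of wild-type animals. Roquin san/+ mice carry 1 sanroque allele of Roquin (Rc3h1), an RNA-binding protein that promotes the decay of its target messenger RNAs, and the allele is present in all their cells. The labels name no treatment, and age, sex and disease state of the mice are not given in the sources used here. The comparison asks whether ribosomal protein messenger RNA differed between the genotypes in these cells.

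The arrays were not equal in quality. On 1 array of each genotype, wild-type replicate E and Roquin san/+ replicate G, the spots lay 2 grid rows off their probe names, and both were moved back before any comparison. Roquin san/+ replicate C was 6.12- to 16.4-fold dimmer than the other 13 arrays by its 75th percentile signal, 800 against 4898 to 13112. The arrays lay on 2 slides, of which slide 1 held 5 Roquin san/+ and 2 wild-type arrays, and slide 2 held 2 Roquin san/+ and 5 wild-type arrays. All 8 CD4 T-cell markers were well above background on all 14 arrays. The summed level of 10 myeloid markers, in log2 units relative to each array's 75th percentile, was 2.26 to 6.50 on the Roquin san/+ arrays and 0.782 to 4.91 on the wild-type arrays, and was highest on Roquin san/+ replicates F and C. On replicate C the marker Itgam stood out, at 4.78 against at most 1.22 on the other arrays. The other tested myeloid markers lay on replicate C within the range of the other arrays. In bulk RNA, fewer cells of a type and less RNA per cell cannot be told apart.

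The start of the transcript is the feature that sets these genes apart in sequence, so the 30 bases around the annotated start, 10 before it and 20 from it on, were read from RefSeq (GRCm38.p6). Windows were held for 64 of the 85 genes, 76 windows in all. Of these, 32.9% held at least 8 unbroken C or T, against 8.11% of 74 windows of mitochondrial ribosomal protein genes and 11.2% of all 32851 windows. The letters CTTTC on the strand of the gene were present in 19.7% of the member windows, 1.35% of the mitochondrial and 3.74% of all windows, while the reverse complement GAAAG was present in 3.95%, 2.70% and 3.65%. A C at the annotated start itself was found in 30.3% of member windows, 14.9% of mitochondrial and 16.3% of all windows. Examples are shown with the longest C and T run in capitals, for the S6 kinase substrate Rps6, for Rpl28, Rpl38, Rplp2, Rps10 and Rps27, whose windows hold CTTTC or a long run, and for Rpl22l1, the member with the lowest p below.
Rps6 (chr4:86857348-86857377, minus strand): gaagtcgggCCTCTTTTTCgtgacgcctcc
Rpl28 (chr7:4792955-4792984, plus strand): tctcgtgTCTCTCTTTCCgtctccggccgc
Rpl38 (chr11:114668570-114668599, plus strand): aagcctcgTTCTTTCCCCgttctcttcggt
Rplp2 (chr7:141447641-141447670, plus strand): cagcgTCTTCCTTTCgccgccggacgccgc
Rps10 (chr17:27635225-27635254, minus strand): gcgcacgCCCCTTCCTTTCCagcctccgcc
Rps27 (chr3:90213629-90213658, minus strand): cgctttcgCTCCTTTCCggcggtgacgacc
Rpl22l1 (chr3:28805498-28805527, plus strand): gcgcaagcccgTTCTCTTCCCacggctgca

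In 300 bases, 250 before the start and 50 after it, the letters CCGGAAG or their complement CTTCCGG, the core bound by ETS family factors, were present in 35.5% of member windows, 33.8% of mitochondrial windows and 8.86% of all windows. The TATA letters TATAAA or TTTATA were present in 8 of 76, 5 of 74 and 4473 of 32851 windows. These are matches of letters, not measured binding sites.

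Of the 187 probes, 164 probes for 78 genes were bright enough to be tested, which meant above background by the scanner's call on every array of one genotype or the other. The call held on all 14 arrays for 160 of them, only on every Roquin san/+ array for 3 and only on every wild-type array for 1. No tested spot was saturated. The other 23 probes were left out, 4 for a missing value and 19 by the filter, and 10 of those 19 were well above background on all 12 well-placed arrays. The 7 genes with no tested probe were Rpl3l, Rpl10l, Rpl39l, Rps4l, Rpl7l1, Rpl37 and Rpl13a, of which all but Rpl37 and Rpl13a are paralogs of another member. Of these paralogs, Rpl3l and Rpl10l were near background. Rpl3l, a muscle form of Rpl3, was well above background on 3 of the 12 well-placed arrays, and Rpl10l, a testis form of Rpl10, on 2. Not every untested paralog was so: Rpl39l, described below, was well above background on most of these arrays.

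No ribosomal protein gene passed the test between the genotypes. In the limma fit over all 12864 probes tested, 0 of 164 member probes passed a Benjamini-Hochberg adjusted p of 0.05, as did 0% of all probes, and the members' adjusted p ran from 0.959 to 0.999. At an unadjusted p below 0.05 there was 1 member probe, for Rpl22l1, or 0.610% of those tested, against 4.06% of all probes. All probes at that threshold were split into 0.801% lower and 3.26% higher in Roquin san/+. No member probe had groups that did not overlap, against 0.0311% of all probes.

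The differences were small and mostly on one side. Of the 164 probes, 126 had a lower mean in Roquin san/+ (76.8%, against 50.4% of all probes tested), and by the brightest probe of each gene 57 genes were lower and 21 higher. With each array's 75th percentile taken over all probes instead, 160 of 164 were lower, and the median of all probes was then itself at -0.17. The median log2 difference was -0.11 over member probes, with quartiles of -0.16 and -0.012, against a median of -0.0021 and quartiles of -0.13 and 0.15 over all probes. By subunit, 51 of 67 small subunit probes were lower with a median of -0.11, and 75 of 97 large subunit probes with a median of -0.10. The 95% interval of a member had a median half-width of 0.38, against 0.43 over all probes, and 111 of 164 intervals lay within a 1.5-fold change in either direction.

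**Figure D1:**
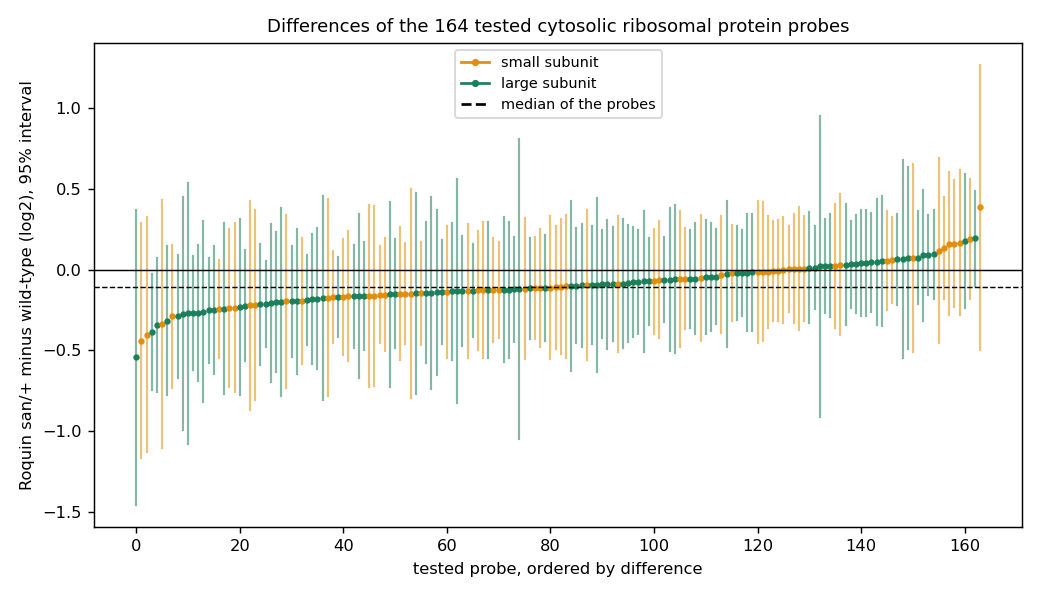
Difference between genotypes (log2, Roquin san/+ minus wild-type, 7 arrays each) for the 164 tested ribosomal protein probes, ordered by size, with 95% limma intervals as bars, orange for the small and green for the large subunit. The curve lies mostly below 0, its median of -0.11 is dashed, and a single interval, that of Rpl22l1, leaves out 0.

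The side of 0 depended on Roquin san/+ replicate C. Each array was summarised by the median over members of the deviation from the probe's mean over the 14 arrays. The Roquin san/+ arrays A to G had 0.29, 0.11, -0.73, 0.11, 0.20, -0.15 and -0.25, and the wild-type arrays A to G had -0.00062, -0.10, 0.27, 0.075, -0.029, 0.098 and 0.18. The groups overlapped, with Roquin san/+ replicates C, F and G below the lowest wild-type array and Roquin san/+ replicate A above the highest, and had means of -0.062 ± 0.35 and 0.070 ± 0.13 (SD, n = 7 each) but medians of 0.11 and 0.075. Roquin san/+ replicate C was the lowest of the 14 arrays for 106 of the 164 member probes (64.6%), and for 19.4% of all probes tested. Wild-type replicate C was the lowest for more of all probes tested, 25.5%, but the highest of the 14 arrays for 40 member probes. Without Roquin san/+ replicate C the median difference over member probes was 0.020, with 74 of 164 lower, and it then lay beside 0.014 over all probes. The part of this array's dimness in the result was not tested.

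**Figure D2:**
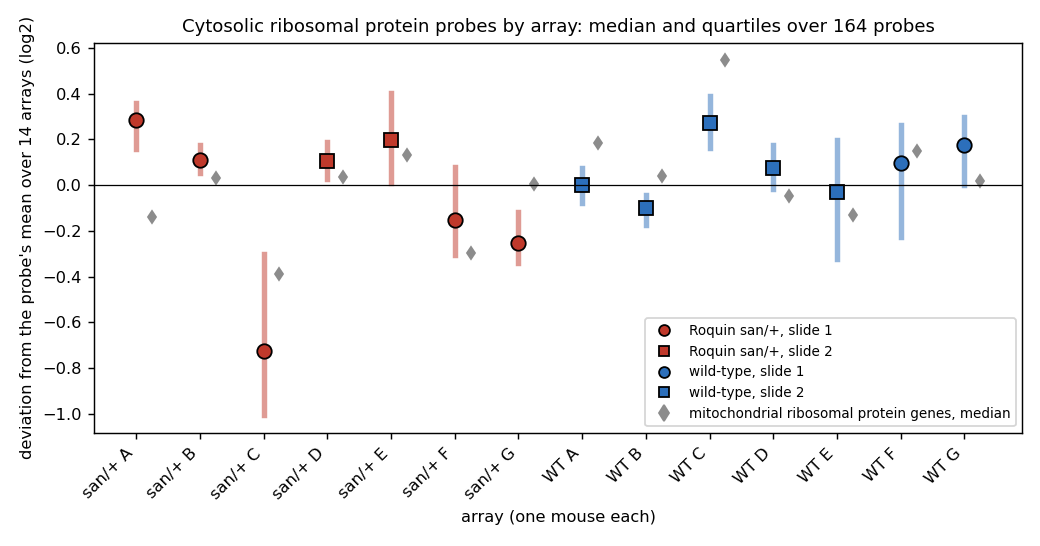
Median (symbol) and quartiles (bar) over 164 ribosomal protein probes of the log2 deviation from each probe's mean over 14 arrays, for Roquin san/+ (red) and wild-type mice (blue), with circles for slide 1, squares for slide 2 and grey diamonds for the median of mitochondrial ribosomal protein probes. Roquin san/+ replicate C stands lowest at -0.73 and the other 13 arrays lie between -0.25 and 0.29.

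Slide also moved with the result. With slide as a block the median difference was -0.056, with 108 of 164 probes lower. On slide 1 alone, which holds replicate C, it was -0.29 with 119 lower. On slide 2 alone, with 2 Roquin san/+ arrays, it was 0.14 with 53 lower. With limma's array weights, in which replicate C had the lowest weight of 0.133, it was 0.045 with 60 lower. None of these fits called a member probe.

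**Figure D3:**
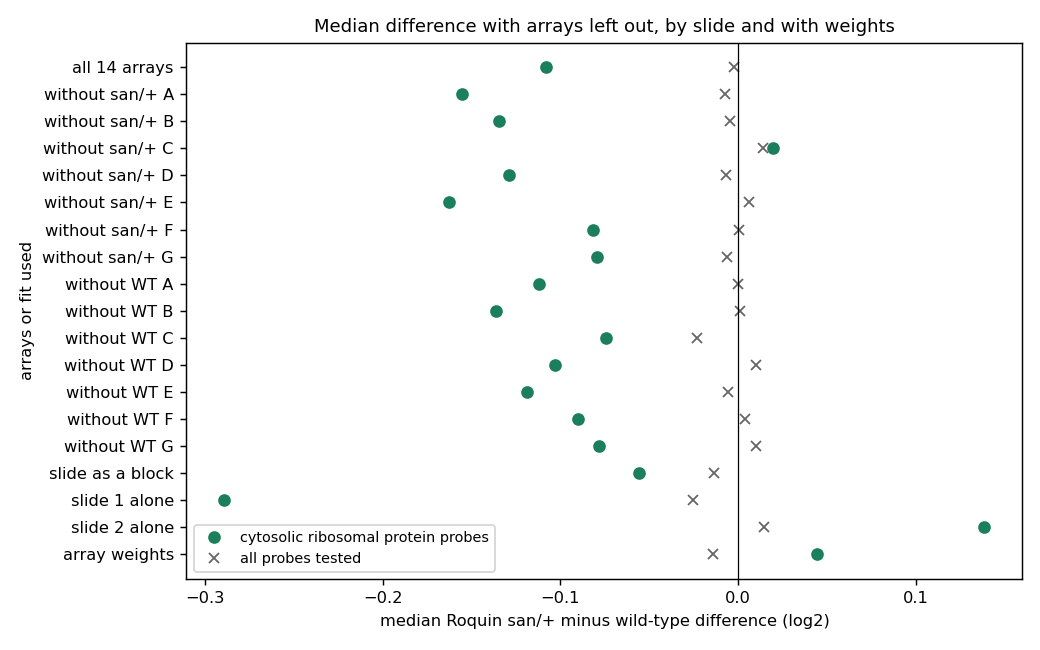
Median Roquin san/+ minus wild-type difference (log2) over ribosomal protein probes (green) and over all probes tested (crosses), with all arrays, with each array left out, with slide as a block, within each slide and with array weights. Leaving out Roquin san/+ replicate C gives 0.020 and every other single array leaves a value between -0.16 and -0.075.

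The members varied together from mouse to mouse. Over all pairs of member probes, the median correlation of residuals from the genotype means was 0.55 over 14 arrays, and 0.43 without replicate C. It was 0.44 and 0.46 for the probes of mitochondrial ribosomal protein genes. These points share their arrays, labelling and scaling, so the correlation is a description. For 67 tested members printed as 10 spots, the SD over the spots of 1 array had a median of 0.0408, against 0.362 between mice of a genotype, and the spread between mice was the larger for all 67. The spread over spots covers printing and scanning only.

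Pairs of probes on the same transcript gave a view of transcript ends. In 34 ribosomal protein transcripts with tested probes at least 100 bases apart, the log2 difference of the 5′-ward minus the 3′-ward probe was compared with the pair's own median over the 14 arrays. The median over pairs was -0.47 on Roquin san/+ replicate C, with 32 of 34 pairs below their own median, and -0.57 on wild-type replicate E, with 33 of 34 below. Roquin san/+ replicate F followed at -0.17 with 27 of 34, and the other 11 arrays lay between -0.067 and 0.21. These values are relative to each pair's own median. The labelling kit primes cDNA from the poly(A) tail, and the labels give an RNA integrity number above 7 for all samples. The part of transcript ends in the genotype difference was not tested.

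**Figure D4:**
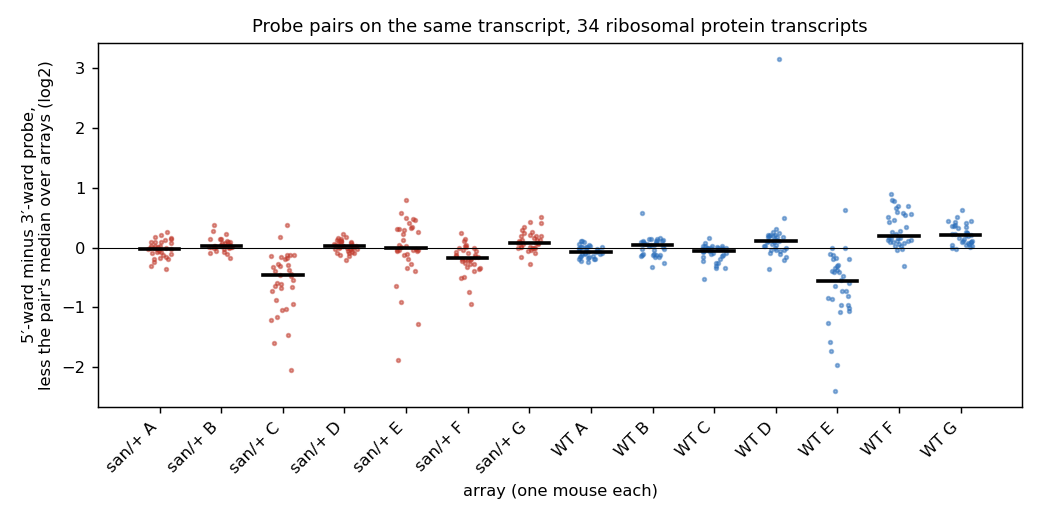
Log2 difference of the 5′-ward minus the 3′-ward probe on the same transcript, less the pair's median over the 14 arrays, for 34 ribosomal protein transcripts (points) on each array (red Roquin san/+, blue wild-type), with black bars for the median. Roquin san/+ replicate C and wild-type replicate E lie lowest, at -0.47 and -0.57.

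Probe position along the transcript moved with replicate C in the same way. Its median deviation was -0.94 for the 37 members whose probe started before base 250, -0.84 for the 75 that started from there to before base 500 and -0.46 for the 52 that started at 500 or later. On that array other probes had -0.31, -0.31 and 0.0068 for 591, 1071 and 10620 probes. The classes count from the start of the transcript record. Distance from its 3′ end was not matched, so the steps of members and of other probes are not compared. Wild-type replicate E had -0.42, -0.0024 and 0.054 for the same 3 member classes.

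Some of these pairs are shown, the 5′-ward probe first, for Rps6, for Rpl6, whose lowest value was on wild-type replicate E, and for Rps9, a small subunit protein needed for decoding accuracy. The sequences are those of the scanner files, whose positions are given on mm9. The first Rps6 probe spans an intron.
Rps6 5′-ward (chr4:86501867-86502058, minus strand): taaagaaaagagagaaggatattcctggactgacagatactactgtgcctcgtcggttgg
Rps6 3′-ward (chr4:86500748-86500807, minus strand): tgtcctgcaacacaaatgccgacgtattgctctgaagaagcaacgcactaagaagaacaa
Rpl6 5′-ward (chr5:121655775-121655834, plus strand): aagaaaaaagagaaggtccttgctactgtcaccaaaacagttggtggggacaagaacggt
Rpl6 3′-ward (chr5:121658820-121658879, plus strand): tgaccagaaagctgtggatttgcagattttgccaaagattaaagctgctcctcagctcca
Rps9 5′-ward (chr7:3656257-3656316, plus strand): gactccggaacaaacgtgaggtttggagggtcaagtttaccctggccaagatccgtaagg
Rps9 3′-ward (chr7:3658287-3658346, plus strand): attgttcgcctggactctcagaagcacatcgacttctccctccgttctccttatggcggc

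For Rps6 the 5′-ward minus 3′-ward log2 difference was -1.99 on Roquin san/+ replicate C and -1.71 on wild-type replicate E, and -1.65 to -0.83 on the other 12 arrays. For Rpl6 it was -3.40 on wild-type replicate E, -2.96 on Roquin san/+ replicate E and -2.05 on Roquin san/+ replicate C, and -1.84 to -1.41 on the rest. For Rps9 it was -1.64 on Roquin san/+ replicate C, -1.26 on wild-type replicate E and -1.18 to -0.70 on the rest. The group means of the pair differed little, by 0.072 for Rps6, 0.030 for Rpl6 and -0.17 for Rps9.

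Rpl22l1 had the lowest p of the members. It encodes a paralog of Rpl22, an RNA-binding protein of the large subunit that is needed for the development of alpha-beta T cells. The lowest, median and highest log2 level of Rpl22l1, relative to each array's 75th percentile, were 1.24, 2.14 and 2.26 in Roquin san/+ and 2.10, 2.31 and 2.78 in wild-type mice. The ranges overlapped, with Roquin san/+ replicate C lowest and wild-type replicate C highest. The difference was -0.39 (95% interval -0.74 to -0.028), with limma p = 0.0362, adjusted p = 0.959 and exact permutation p = 0.0204 over 3432 arrangements, two-sided. Without Roquin san/+ replicate C it was -0.27 and with slide as a block -0.28, and neither fit kept an unadjusted p below 0.05.

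Rpl22 itself had 1.85, 2.65 and 3.02 in Roquin san/+ and 2.40, 2.66 and 2.99 in wild-type mice. The medians were nearly equal, the lowest value was again replicate C, and the difference was -0.22 (interval -0.59 to 0.16; limma adjusted p = 0.959). On slide 2 alone it was 0.17.
Rpl22 probe (mm9 chr4:151704158-151704217, plus strand): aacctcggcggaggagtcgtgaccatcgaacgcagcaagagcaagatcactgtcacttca

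Other large subunit members with low unadjusted p were Rpl36a, Rpl7, Rpl30 and Rpl27. By the probe with the lowest p of each gene, Rpl36a had -0.34 (interval -0.76 to 0.070), Rpl27 -0.27 (-0.62 to 0.083), Rpl30 -0.25 (-0.58 to 0.074) and Rpl7 -0.21 (-0.48 to 0.050), with limma adjusted p = 0.959 for each. The other tested probes had differences of -0.22 and -0.16 for Rpl36a, -0.18 for Rpl27, -0.085 and -0.091 for Rpl30, and -0.13 and -0.15 for Rpl7. The Rpl30 and Rpl7 probes with the lowest p lie on other transcript records than the brighter probes of these genes. That Rpl36a probe ranged from 1.17 to 2.69 in Roquin san/+ and from 2.31 to 2.66 in wild-type mice, and its difference was 0.12 on slide 2 alone. That of Rpl27 was 3.16 on replicate C and 3.85 to 4.25 on the other Roquin san/+ arrays, against 4.04 to 4.44 in wild-type mice, and had a difference of -0.13 without replicate C.

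Rpl5 and Rpl11 form with 5S RNA the particle that binds Mdm2 and so links ribosome assembly to p53. One Rpl5 probe had the lowest difference of all members, -0.54 (interval -1.45 to 0.37; limma adjusted p = 0.959). Its level was 0.0817 on Roquin san/+ replicate C, 2.81 to 3.40 on the remaining Roquin san/+ arrays and 2.40 to 3.79 in wild-type mice, and without replicate C the difference was -0.11. The brighter Rpl5 probe had -0.24, and -0.066 without that array. Rpl11 had levels of 4.25 to 4.91 in Roquin san/+ and 4.33 to 4.80 in wild-type mice and a difference of 0.013 (interval -0.24 to 0.27).

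The P-stalk recruits elongation factors to the ribosome. Rplp0 had a difference of -0.072 (interval -0.34 to 0.20), the brightest Rplp1 probe of 0.090 (-0.32 to 0.50) and Rplp2 of -0.072 (-0.51 to 0.36). Replicate C was the highest of the 14 arrays for that Rplp1 probe, at 5.61 against 4.37 to 5.41 elsewhere, and the lowest for Rplp2, at 4.18 against 4.68 to 5.63. For the other Rplp1 probes, on another transcript record, it was the lowest array, at 3.19 and 3.25, and both had a difference of -0.18. Over all members, replicate C was the highest of 14 arrays for 8 of the 164 probes.

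Among small subunit proteins, Rps6, the substrate of the S6 kinases, had 3.52, 4.04 and 4.21 in Roquin san/+ and 3.92, 4.09 and 4.38 in wild-type mice, and a difference of -0.17 (interval -0.45 to 0.12). Rps14, a gene of the human 5q- syndrome region, was 3.06 on replicate C and 4.32 to 5.12 on the other Roquin san/+ arrays, against 4.36 to 4.96 in wild-type mice. Its difference was -0.16, and 0.085 without that array. Rps19, the gene most often mutated in Diamond-Blackfan anaemia, had -0.055 (-0.37 to 0.26). Rps27a, made as a fusion with ubiquitin, had -0.19 (-0.59 to 0.20), Rps4x 0.0043 (-0.26 to 0.27) and Rpsa, the laminin receptor precursor, 0.0067 (-0.37 to 0.39). All of these had a limma adjusted p of at least 0.959.

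Rps10 and Rps3a1 were among the highest differences. The Rps10 probe had 0.39 (interval -0.50 to 1.27), with wild-type replicate D at 2.12 and the other 13 arrays at 4.54 to 5.44. Without that array it was -0.044. The other Rps10 probes were not low on wild-type replicate D, at 2.69 and 4.22, and had differences of -0.17 and -0.062. Rps3a1 had 0.19 (-0.18 to 0.56), with Roquin san/+ replicate C highest at 4.79, and 0.077 without it.

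Rps27l, a p53-induced paralog of Rps27, had the lowest differences beside Rpl5, in 2 separate probes. The brighter had -0.40 (interval -1.13 to 0.32) and the other -0.44 (-1.17 to 0.29), and limma's adjusted p was 0.959 for both. Wild-type replicate C was highest for both, at 2.41 and 1.15, while the other wild-type arrays reached 1.21 and -0.11 and the Roquin san/+ arrays 0.60 and -0.74. Without wild-type replicate C the differences were -0.11 and -0.14. The largest spread within a genotype, beside the Rpl5 probe with the lowest difference, was that of 2 probes of Rpl3, a large subunit protein. Their differences were 0.020 (-0.91 to 0.95) and -0.12 (-1.05 to 0.81). The first is dim, with a mean level of -3.19 against 3.83 for the brightest Rpl3 probe, and lies on another transcript record. The second starts at base 159 of the record that the brightest probe lies on.

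Rpl39l, a paralog of Rpl39, was not tested by the main filter because the displaced arrays give no usable detection call for dim probes. It was well above background on 11 of the 12 well-placed arrays. On those arrays its lowest, median and highest levels were -8.20, -7.46 and -5.41 in Roquin san/+ and -6.57, -5.77 and -4.45 in wild-type mice, so that the ranges overlapped. With detection judged on the well-placed arrays alone and all 14 arrays in the fit, its difference was -1.39 with a limma adjusted p = 0.867, although its unadjusted p was below 0.05. Both displaced arrays enter that value at their lowest signal, a level shared with many other dim probes, and without them the difference was -1.64 with a limma adjusted p = 0.647. Both fits asked for detection on every well-placed array of one genotype or the other. With a call on 11 of 12, this probe passed through a single genotype. Its differences and p are therefore not free of that selection.

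The same choice added 14 member probes in all, of which 2 had an unadjusted p below 0.05, that of Rpl39l and a dim probe of Rpl7a, a large subunit protein. Of the 14, 10 were well above background on all 12 well-placed arrays. The others passed through a single genotype, and their values carry the same selection. In that limma fit 3.82% of all probes had an unadjusted p below 0.05. The Rpl7a probe had -0.35 with a limma adjusted p = 0.867. On the 12 well-placed arrays its level was -3.88 to -3.48 in Roquin san/+ and -3.43 to -3.07 in wild-type mice, so that the groups did not overlap, the 1 member probe of 178 for which this was so, against 0.93% of all probes. The tested Rpl7a probes, on another transcript record, had 0.095 and -0.019. A dim probe of Rps4x had 0.90 with an adjusted p = 0.867. Its level on the well-placed arrays was -7.40 to -4.99 in Roquin san/+ and -8.12 to -7.12 in wild-type mice. Rps4l, which RefSeq lists as a transcribed pseudogene and which is counted among the 85 genes by its name, had -0.56 with an adjusted p = 0.872. Rpl7l1 had 0.0086 with an adjusted p = 0.997. Without the displaced arrays the dim Rps4x probe had 1.12, Rps4l -0.33 and Rpl7l1 -0.22.

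**Figure D5:**
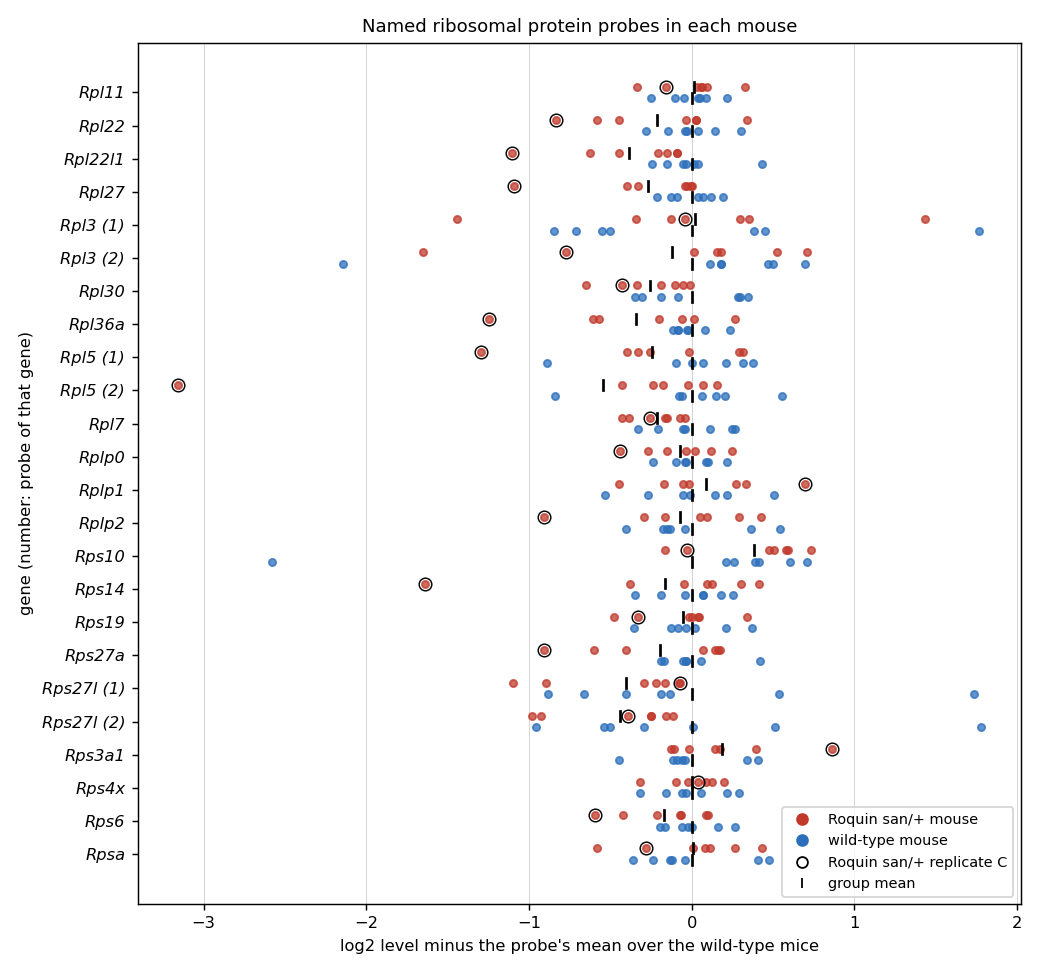
Log2 level of named ribosomal protein probes in each Roquin san/+ (red) and wild-type mouse (blue), less the probe's mean over the wild-type mice, with black bars for group means and a ring around Roquin san/+ replicate C. The colours overlap for every probe, and the ringed array lies apart for Rpl5, Rps14 and Rpl27, as wild-type replicate D does for Rps10.

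Several genes with more than 1 tested probe gave differing signs, 15 of 56 genes, and none had a probe with unadjusted p below 0.05 on either side. Overlap in sequence was limited to probes of one gene: 13 pairs shared a run of 20 or more bases and none of these joined 2 genes. This comparison covers member probes only, so signal from pseudogenes, of which this family has many, were not separated.

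Genes that work with the ribosome were counted by their brightest tested probe. Of 22 translation factors and other TOP mRNA products, 17 were lower and 5 higher, with a median of -0.11, close to the -0.087 of the 78 member genes. They include Fau, which encodes a ribosomal protein fused to a ubiquitin-like protein, with -0.021. The elongation factor genes Eef1a1 and Eef2 had -0.036 and 0.019. None had an unadjusted p below 0.05, and without replicate C the median was -0.025.

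Ribosome biogenesis genes and mitochondrial ribosomal protein genes were lower without that array too. Of 28 biogenesis genes 26 were lower, with a median of -0.15, and 27 with a median of -0.16 without replicate C. Gar1, a protein of H/ACA ribonucleoprotein particles, had -0.56, Wdr12, of the PeBoW complex, -0.49 and Polr1a, the largest subunit of RNA polymerase I, -0.30. These 3 of 28 had an unadjusted limma p below 0.05 and an adjusted p of 0.959, where 0.801% of all probes tested were lower at that threshold. Of 73 mitochondrial ribosomal protein genes 69 were lower, with a median of -0.17, and 67 with a median of -0.12 without replicate C. Among them Mrps17, the 1 of 73 with an unadjusted p below 0.05, had -0.38 with a limma adjusted p of 0.959, beside the same 0.801% of all probes. The highest Mrps17 level, 0.17, was on wild-type replicate C. On Roquin san/+ replicate C the mitochondrial set had a median deviation of -0.39, against -0.73 for the cytosolic set. Wild-type replicate C had the highest mitochondrial median deviation, 0.55, against at most 0.18 on the other arrays. Counts without wild-type replicate C were not made for these lists.

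The mTORC1 and TOP control genes lay on both sides, and the balance moved with the setting. With all arrays 10 of 17 were higher and 7 lower, with a median of 0.0060. Without replicate C 11 were lower with a median of -0.068, with quantile normalization 12 with -0.073, and with array weights 13 with -0.048. Larp1, which binds TOP messenger RNAs, had 0.0054, and Rps6kb1, which encodes an S6 kinase, 0.059. Myc, the 1 of 17 with an unadjusted p below 0.05, had -0.42 with a limma adjusted p of 0.959. Of all probes tested, 0.801% were lower at that threshold. Beside these, the 8 CD4 T-cell markers were all lower with a median of -0.12, and 4 of 8 were lower with a median of -0.0036 without replicate C. The 8 tested myeloid markers were all higher, with a median of 1.099, of which 2 had an unadjusted p below 0.05, where 3.26% of all probes tested were higher at that threshold. Without Roquin san/+ replicate F, the array with the highest summed level, all 8 were still higher but their median was 0.52, beside -0.076 with 59 of 78 lower for the ribosomal protein genes. The 3 tested of 9 B-cell markers were higher with a median of 0.86, and 0.043 with 1 lower without that array. The 2 tested of 3 CD8 T-cell markers were higher with a median of 0.74, Cd8b1 with 0.54 and Gzmb with 0.95. Only Gzmb had an unadjusted p below 0.05, beside the same 3.26% of all probes. Cd8b1 was at 0.99 on Roquin san/+ replicate F and at most -2.15 on the other arrays. Without Roquin san/+ replicate F these 2 markers had a median of 0.36 with 1 lower. The 8 CD4 T-cell markers then had 2 lower and a median of 0.078. With all arrays, the 3 tested of 6 NK markers had 1 higher and 2 lower, with a median of -0.19. The 1 tested of 5 erythroid markers had -0.060. The part of other cells in the ribosomal protein levels was not tested.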

How the data were processed

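Total RNA of CD4+ T-cells was labelled with Cy3 and hybridised to 1-colour Agilent arrays. The authors deposited spot intensities from Agilent Feature Extraction 10.5.1.1 (version from the submitters' processing notes), and a log2 table, whose method is not given in the sources used here; its column medians were 6.20 to 6.23, so its scaling is unknown. The paper at hand describes other samples. Wild-type replicate E and Roquin san/+ replicate G were moved by 2 grid rows, which raised their correlation with the median array from 0.0149 and 0.0143 to 0.889 and 0.909. The processed intensity was set to log2, spots of a probe were averaged and the 75th percentile over the 10320 probes detected throughout was subtracted per array. Probes detected on every array of one genotype or the other were tested with limma 3.58.1 (R 4.3.3, lmFit and eBayes, Benjamini-Hochberg over 12864 probes). Single probes were also tested by exact permutation, whose smallest p is 5.83e-04. Tables used Python 3.11.15, numpy 2.4.6 and pandas 2.3.3. The fit was tested on simulated data.

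The members and gene lists were chosen with earlier results of these data known. Named probes were the 6 with the lowest p, the 3 highest and 3 lowest differences, the 3 largest spreads within a genotype, a list of functional members and paralogs, and any gene whose probes differed in sign with an unadjusted p below 0.05. Some named members are not reported here. All 85 symbols matched RefSeq. Replicates are 1 mouse each as the labels imply, and their number limits the precision. Replicate letters are shared by the genotypes, and whether they pair mice is not known. Same-letter correlations ran from -0.47 to 0.41, which cannot decide this because array effects enter them too. The letters were not used to pair mice in the main fit.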

Additional observations from a re-analysis of the deposited data

Results flagged for a closer look

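A lowest or highest array far from the other 6 of its genotype was looked for in 56 groups, 2 for each of 28 results, by Dixon's ratio above its 95% critical value. Chance flags about 1 in 20 groups of independent values. Here 9 were found, but some probes were named for a low p or an extreme difference and all share the same 14 arrays, so the count is not read against that share. In the probe pairs, wild-type replicate E lay at -0.57 with its group's remaining arrays at -0.067 to 0.21. Wild-type replicate E was also lowest for an Rpl3 probe, at -1.71 against 0.54 to 1.13, and for an Rpl5 probe, at 2.69 against 3.48 to 3.96. Roquin san/+ replicate C was lowest for Rpl27, at 3.16 against 3.85 to 4.25, for the other Rpl5 probe, at 0.0817 against 2.81 to 3.40, and for Rps14, at 3.06 against 4.32 to 5.12. Wild-type replicate C was highest for Rpl22l1, at 2.78 against 2.10 to 2.38, and for Rps27a, at 5.18 against 4.57 to 4.82. Wild-type replicate D was lowest for Rps10, at 2.12 against 4.91 to 5.41.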

How the results depend on the processing

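Under every alternative run, 0 member probes and 0 of all probes passed limma's adjusted p of 0.05, and the median difference over member probes ran from -0.29 to 0.14, within the spread between array medians of the main value. With each array left out in turn it ran from -0.16 to 0.020, with 0 to 3 member probes at an unadjusted p below 0.05. Of all probes, 2.52% to 6.13% were at that threshold in these fits. Taking the 75th percentile over all probes moved the median of all probes to -0.17 and of members to -0.28, a gap close to the main one. Without the filter on dim probes the median of all probes was 0.40 and of members -0.11. At the deposited positions 31 member probes could be tested, with a median of -0.12. With the replicate letter as a block, the median was -0.11 and 0 member probes had an unadjusted p below 0.05, against 4.85% of all probes. Whether the letters pair the mice is not known. Cyclic loess, array weights and leaving out the dim array with both displaced arrays were chosen after seeing the data, and the last gave a median of 0.016.

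No named probe was called in any fit, and the sign of small differences turned as follows. With normexp, Rpl11 was -0.046 and Rps4x -0.10. With quantile normalization, Rpl11 was -0.072, Rpl3 (A_66_P108945) -0.14, Rplp1 -0.17 and Rpsa -0.069. With the percentile over all probes, Rpl11 was -0.16, that Rpl3 probe -0.15, Rplp1 -0.083, Rps4x -0.17 and Rpsa -0.17. With the median of detected probes other than members, Rpl11 was -0.014, that Rpl3 probe -0.0064, Rps4x -0.022 and Rpsa -0.020. With slide as a block, Rplp2 was 0.013 and Rps19 0.024, and on slide 1 alone 0.19 and 0.11. On slide 2 alone, Rpl22 was 0.17, Rpl36a 0.12, Rplp0 0.084, Rplp1 -0.27, Rps14 0.28, Rps27a 0.13, Rps3a1 -0.18, Rps4x -0.15 and Rpsa -0.050. Without both displaced arrays, Rplp2 was 0.011 and Rps19 0.0068. In the authors' log2 table, Rpl11 was -0.073, that Rpl3 probe -0.25, Rplp0 0.023, Rplp1 -0.065 and Rpsa -0.0046. With cyclic loess, Rpl11 was -0.019, that Rpl3 probe -0.029, Rps4x -0.015 and Rpsa -0.024. With array weights, Rpl22 was 0.023, Rplp0 0.059, Rplp2 0.25, Rps14 0.070, Rps19 0.15 and Rps27a 0.081. Without the dim and displaced arrays, Rplp0 was 0.048, Rplp2 0.22, Rps14 0.11, Rps19 0.11 and Rps27a 0.015. Averaged over a gene's probes, Rplp1 was -0.090, Rps4x -0.023 and Rpsa -0.032. With single arrays left out, the ranges were -0.040 to 0.071 for Rpl11, -0.22 to 0.32 and -0.48 to 0.14 for the Rpl3 probes, -0.049 to 0.058 for Rps4x, -0.064 to 0.10 for Rpsa, -0.012 to 0.18 for Rplp1, -0.16 to 0.067 for Rplp2, -0.26 to 0.085 for Rps14, -0.12 to 0.015 for Rps19 and -0.044 to 0.50 for Rps10. The cause of these turns was not tested. Signal over background limits dim members, 23 of which were not tested.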
